A study of Caenorhabditis elegans with 2 samples.

Results

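The sites described here are the autosomal promoter sites of eGFP-tagged MEF-2 that face genes in a single direction. They were selected on the deposited signal value of the peak caller. From the relaxed list of the pooled replicates, mitochondrial entries were dropped, the 3000 strongest nuclear entries were kept, and those on the autosomes, 2411 sites, were set against the annotated 5' ends of protein-coding genes. A site was taken as a member when it fell in the window between 1000 bp before and 200 bp after the 5' end of genes on a single strand. This held for 766 sites, 31.8% of the autosomal sites, a share that the rule itself fixes. Another 356 sites lay in such windows on both strands and are called divergent promoter sites, and 1289 lay in no window.

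The positions come from chromatin immunoprecipitation and sequencing (ChIP-seq) of whole first-stage (L1) larvae of Caenorhabditis elegans, mixed in sex, in 1 group of 2 biological replicates. All larvae were of strain OP301, which carries the unc-119 allele tm4063 on chromosome III and the integrated transgene wgIs301, so both replicates express MEF-2 as a fusion with eGFP. The antibody is recorded in the labels under the name mef-2, and the libraries had a size range of 150 to 350 bp. The copy number of wgIs301 was not given in the sources used here, nor was the sequence that drives the fusion. No treatment, genotype or other stage was compared. Whole larvae hold every tissue, so a site may come from any of them. Only peak lists were used, and they do not give the depth of a library. With 1 group of 2 replicates, and with members chosen by the signal value, all shares below are descriptions without a test, and their 95% Wilson intervals cover counting error only.

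MEF-2 is the worm relative of the vertebrate MEF2 proteins, transcription factors with a MADS box that act in muscle and neurons and answer to calcium signals through calcineurin and calmodulin-dependent kinases. MEF2 proteins bind an A/T-rich sequence, the MEF2 element. Here a site in the 5' windows of a single strand is assigned to the gene with the nearest 5' end, whereas a divergent promoter site faces genes on both strands. The single direction holds within the window only, since a gene in the opposite direction can start farther off. In C. elegans many messenger RNAs receive a spliced leader in trans, so that an annotated 5' end is often not the place where transcription starts.

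Sequences of 2 kinds are shown first, because they carry the contrast between the element known for the MEF2 family and a word that was frequent at the members. Each run spans 60 bp to each side of the site on ce11 (WBcel235, sequence from RefSeq) and is written 5' to 3' along the gene. The first set holds members with a MEF2 element, in capitals. F53C3.6, which encodes a CX domain-containing protein, lies at chrII:3897877-3897997 on the plus strand, dld-1, the mitochondrial dihydrolipoyl dehydrogenase, at chrIV:14464198-14464318 on the plus strand, and cua-1, a copper transporter, at chrIII:13456000-13456120 on the minus strand.
F53C3.6: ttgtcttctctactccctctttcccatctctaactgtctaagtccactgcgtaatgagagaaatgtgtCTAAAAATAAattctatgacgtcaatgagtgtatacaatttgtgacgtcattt
dld-1: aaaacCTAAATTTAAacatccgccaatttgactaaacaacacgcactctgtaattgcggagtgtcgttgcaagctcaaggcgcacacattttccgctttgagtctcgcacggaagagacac
cua-1: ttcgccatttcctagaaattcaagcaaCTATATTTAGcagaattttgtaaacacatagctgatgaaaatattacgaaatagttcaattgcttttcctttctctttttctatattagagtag

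The element began 8 bp downstream of the site at F53C3.6, 55 bp upstream of it at dld-1 and 33 bp upstream of it at cua-1. The second set holds members with the 10-base word whose share at members most exceeded that in their flanks, in capitals. They are gbas-1, an activator of G protein alpha subunits, at chrII:2504559-2504679 on the plus strand, ntl-11, a subunit of the CCR4-NOT complex, at chrIV:15471550-15471670 on the minus strand, and sec-61.G, a subunit of the protein translocation channel, at chrV:10897321-10897441 on the minus strand, a site that also lies upstream of F32D8.13.
gbas-1: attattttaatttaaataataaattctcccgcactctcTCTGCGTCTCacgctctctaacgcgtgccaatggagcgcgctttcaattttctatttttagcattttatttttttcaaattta
ntl-11: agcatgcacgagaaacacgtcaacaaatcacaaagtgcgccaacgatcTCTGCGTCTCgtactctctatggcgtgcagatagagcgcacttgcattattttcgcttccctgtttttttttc
sec-61.G: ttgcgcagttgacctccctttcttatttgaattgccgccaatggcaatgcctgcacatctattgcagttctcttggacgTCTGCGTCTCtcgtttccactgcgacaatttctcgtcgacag

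In all 3 the word read TCTGCGTCTC along the gene, the reverse complement of GAGACGCAGA. Its first base lay 22 bp upstream of the site at gbas-1, 12 bp upstream at ntl-11 and 19 bp downstream at sec-61.G. The window of gbas-1 also held a MEF2 element, CTATTTTTAG, that began 29 bp downstream of the site.

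The signal values that chose the members ran from 14.65 to 164, with a median of 20.8, in the caller's own units. The median was 22.4 at divergent promoter sites and 19.1 at the sites in no window. The authors' list thresholded by the irreproducible discovery rate, a measure of how well ranks repeat between replicates, contained the identical interval of 230 members (30.03%), 127 divergent promoter sites (35.7%) and 26.6% of all autosomal sites. Just inside the rank limit were the sites at mak-1, R11A5.6 and ceh-20, with signal values of 14.66, 14.65 and 14.65, and just outside it those at crh-1, unc-24 and ZK822.10, with 14.63, 14.63 and 14.62. At the upstream edge of the window, the sites at T05B4.9, ZK616.1 and rps-26 lay 996, 996 and 984 bp from the 5' end, and the nearest ones left out, at ttr-41, mpc-1 and lrk-1, lay 1002, 1005 and 1006 bp away. The limits therefore cut through a continuous range of strength and of distance.

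The replicates differed in how many members they listed. A relaxed interval of replicate 1 overlapped 760 members and one of replicate 2 overlapped 651, with 645 (84.2%, interval 81.5 to 86.6%) in both lists. The share was 86.5% at divergent promoter sites and 80.1% over all autosomal sites. Of the members missing from one list, 115 were in replicate 1 alone and 6 in replicate 2 alone; the relaxed lists held 30000 entries in replicate 1 and 16385 in replicate 2. Signal values at members ran from 4.78 to 118 in replicate 1, with a median of 16.3, and from 2.02 to 60.5 in replicate 2, with a median of 6.49. The caller's units are not stated to be comparable between lists, so ranks are given below. Among the 645 members in both lists, Spearman's rho between the replicates' signal values was 0.352, a description over sites that were chosen on the pooled signal of the same libraries. Members also share intervals: 26 overlapped another member, and 26 shared their interval in replicate 1 with another.

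**Figure D1:**
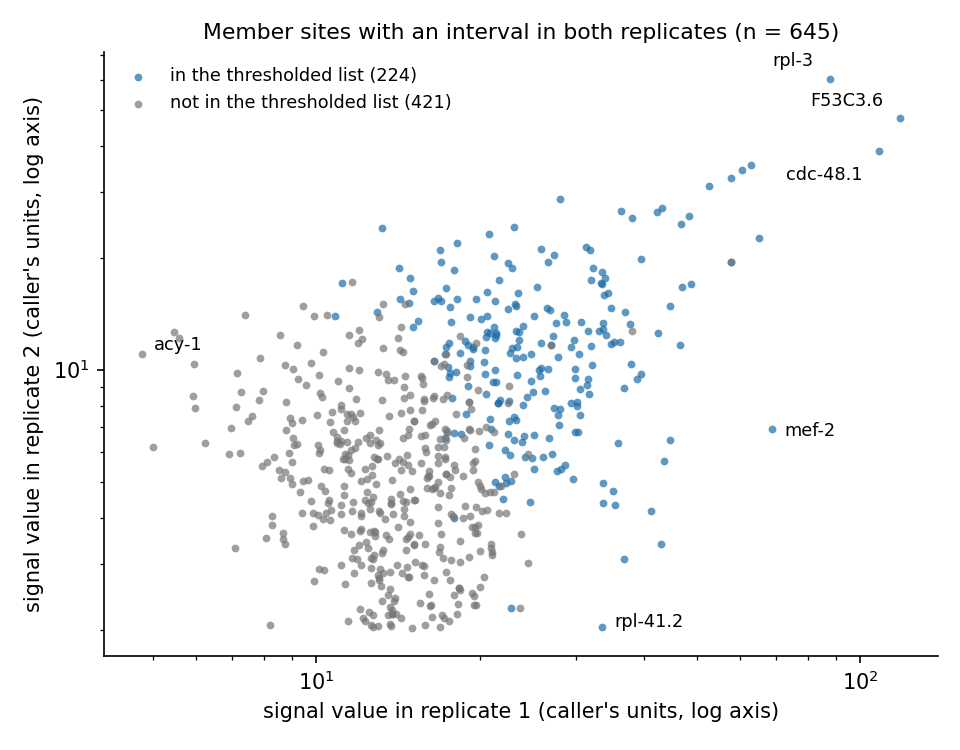
Signal value in replicate 1 (x axis) against replicate 2 (y axis), both log axes in the caller's units, for the 645 members with an interval in both lists, coloured by presence in the thresholded list. F53C3.6, rpl-3 and cdc-48.1 are high in both replicates, and acy-1 is low in replicate 1. Both mef-2 and rpl-41.2 are high in replicate 1. In replicate 2, mef-2 (6.91) lies near the members' median of 6.49 and rpl-41.2 (2.04) is low.

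The 3 strongest members stood near the top of both replicates. The site 205 bp upstream of F53C3.6, on chromosome II, had a pooled signal value of 164, with 118 in replicate 1 (rank 2) and 47.4 in replicate 2 (rank 3). That of rpl-3, a large-subunit ribosomal protein, lay 279 bp upstream on chromosome III and had a pooled value of 149, with 87.9 (rank 5) and 60.5 (rank 2). The site 170 bp upstream of cdc-48.1, the AAA ATPase that extracts ubiquitinated proteins, had a pooled value of 147, with 108.4 (rank 3) and 38.7 (rank 7). These sites were at the top of both lists, and only that of F53C3.6 held a MEF2 element within 100 bp.

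Other strong members lay near genes of varied function, given here with the pooled value and then the ranks in replicates 1 and 2. rpl-35, another large-subunit ribosomal protein, had a value of 99.5 (ranks 18 and 10), and F13G3.10, which has a nascent polypeptide-associated UBA domain, had 97.6 (ranks 24 and 13) at a site that also lies upstream of mif-3. cox-5A, a subunit of cytochrome c oxidase, had 87.3 (ranks 17 and 60). egl-30, the alpha subunit of the Gq protein that acts in neurons and muscle, had 76.4 (ranks 65 and 41) at a site 54 bp upstream that also faces C53H9.4. unc-108, the small GTPase Rab2, had 63.6 (ranks 153 and 39), and cbp-1, the histone acetyltransferase of the CBP/p300 family, had 58.6 (ranks 120 and 99). din-1, a corepressor that binds the nuclear receptor DAF-12, had 55.3 (ranks 208 and 169). These genes thus range from the basic machinery of the cell to signalling in the nervous system.

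The remaining members among the 25 strongest had values from 53.9 to 93.0. egg-5, an inactive phosphatase that acts at the transition from egg to embryo, had 93.0 (ranks 30 and 14), and ntl-11 had 71.3 (ranks 72 and 48). sqd-1, an RNA-binding protein, had 71.1 (ranks 102 and 40), and his-37, a histone H4 gene, had 70.8 (ranks 64 and 170). All 4 stood high in both replicates. his-37 belongs to a family of near-identical genes, so reads may be shared among its copies. The zinc finger protein gene ztf-7 had 69.6 (ranks 90 and 36), and sec-61.G had 66.2 (ranks 70 and 176). ints-4, a subunit of the Integrator complex that processes small nuclear RNAs, had 61.5 (ranks 74 and 439) at a site 32 bp downstream of the annotated end, in the 5' untranslated region. Unlike all the other members among the 25 strongest, this site lay downstream of the annotated end. The peptidase gene eelo-2 had 61.3 (ranks 126 and 44), dld-1 had 60.2 (ranks 83 and 239), and cua-1 had 56.0 (ranks 100 and 377). Y39A1A.9, a gamma-tubulin complex component, had 57.3 and ranked 350 in replicate 1 and 29 in replicate 2, with signal values of 27.98 and 28.8, while gbas-1 had 53.9 and ranked 194 and 193.

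In several of these, the assigned gene was not the only annotated feature close by. The site of H41C03.3, an uncharacterized gene, had a value of 74.99 (ranks 29 and 109). Between this site and H41C03.3 lies another protein-coding gene, ZK1248.17, in the opposite direction. The site lay 945 bp upstream of H41C03.3 but 33 bp from sls-2.1, an SL2 spliced leader RNA gene that the annotation classes as a small nuclear RNA. The site of egg-5 lay 34 bp from the non-coding RNA gene R12E2.18 and within 200 bp of the 5' end of sls-2.4, of the same family. That of npr-23, a predicted G protein-coupled receptor, had a value of 80.9 (ranks 47 and 21) and lay in an intron of vps-4. Over all members, 78 (10.2%) had the 5' end of an ncRNA gene within 200 bp, against 51 (14.3%) of divergent promoter sites, and 18 (2.35%) that of a small nucleolar RNA gene, against 3 (0.843%). The 5' end of a gene classed as small nuclear RNA lay that near to 7 members (0.914%), against 1 divergent promoter site (0.281%). The 5' end of a transfer RNA gene lay that near to 6 members and that of a microRNA gene to 0, which allows a share of up to 0.392%.

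The site 219 bp upstream of mef-2 itself is a member, at chrI:9095738, with a pooled value of 71.0. It ranked 13 in replicate 1 and 1344 in replicate 2, with signal values of 68.8 and 6.91, so it stood far higher in replicate 1. It held the 10-base word and no MEF2 element. The members at rsbp-1, nduf-7 and gld-4 also lay within 20 kb of mef-2, with values of 32.4, 40.5 and 39.9. Whether extra copies of this region in the transgene affect these 4 values was not tested. Without them, 762 members remained, 6.69% of them with a MEF2 element and 10.9% with the 10-base word.

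The ranks of some members differed widely between the replicates. The relaxed lists are of unequal length, so the largest possible difference is not the same in each direction, and the ranks are given as a description of each list. Among members in both lists, the 5 whose rank number was lower in replicate 2 by the most were at acy-1, an adenylyl cyclase, F26H11.4, aakg-5, pghm-1 and T24B8.3, which ranked from 19798 to 29451 in replicate 1 and from 374 to 1683 in replicate 2. The 5 whose rank number was higher in replicate 2 by the most were at pbs-3, a proteasome subunit, F26F4.8, F25H2.4, F43G6.8 and rpl-41.2, which ranked from 207 to 1705 in replicate 1 and from 15288 to 16220 in replicate 2. Of these 10, rpl-41.2 had the highest pooled value, 38.9, while the others had values from 14.7 to 22.3. These members thus stood high in a single replicate.

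Within the window set by the rule, member sites lay mostly a short way upstream. That window spans 1000 bp upstream and 200 bp downstream, so most sites would lie upstream by its shape alone. The median also moves with the window, to 194.5 bp with a shorter and 479 bp with a longer one. The median distance was 260.5 bp upstream of the nearest 5' end, with quartiles of 515 and 131 bp, against 145.5 bp at divergent promoter sites, where the geometry of the windows differs. Of the members, 703 (91.8%) were upstream and 63 at or downstream of the 5' end. The densest bin, from 200 to 100 bp upstream, held 144 members, and the first 100 bp downstream held 33. The medians by chromosome ran from 239 bp on V to 274 bp on III. With the 5' ends of all protein-coding transcripts in place of gene ends, 310 members lay within 200 bp of an end, against 302.

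**Figure D2:**
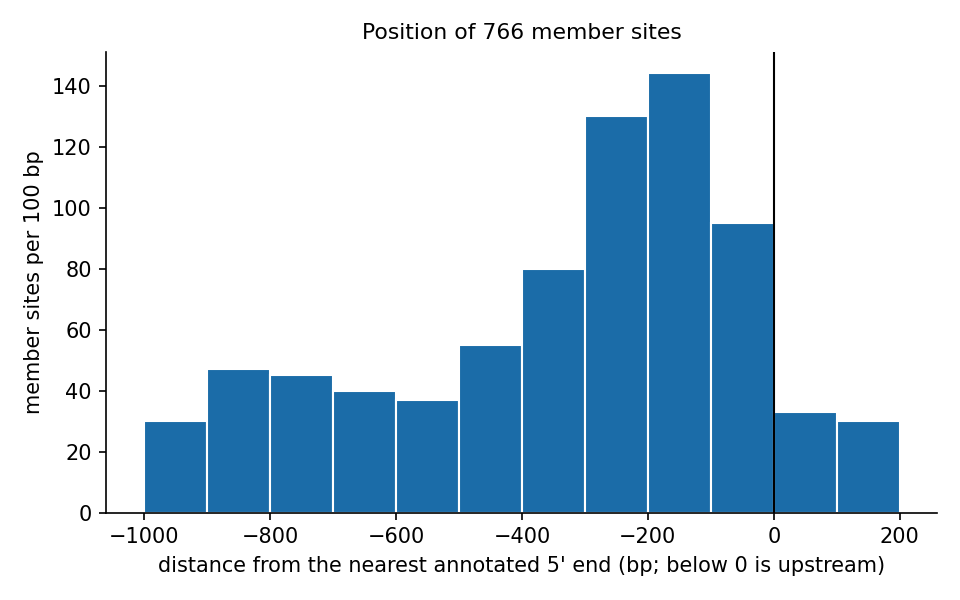
Number of member sites per 100 bp (y axis) by distance from the nearest annotated 5' end in bp (x axis, below 0 is upstream), for all 766 members. The bars are highest from 200 to 100 bp upstream (144 sites) and low beyond the 5' end (33 and 30 sites).

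Most members were intergenic, 620 of 766 (80.9%), and 67 (8.75%) lay in an intron, against 307 (86.2%) and 7 (1.97%) of the 356 divergent promoter sites. A further 41 members lay in a 5' untranslated region, 24 in a coding exon and 14 in a 3' untranslated region of a gene. Upstream of the nearest gene, the next protein-coding gene ran in the same direction for 426 members (55.6%, against 50.6% of all autosomal genes) and in the opposite direction for 292 (38.1% against 42.2%). Where the neighbour ran in the opposite direction, the median gap between both genes was 2939 bp at members and 1188 bp over all genes. The rule drops sites near a 5' end on the other strand, so the differences in direction and in gap are both shaped by the choice of members. In the remaining 48 members the 5' end lay inside another gene.

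The windows on a single strand cover 16.4 Mb of the autosomes and held 46.6 members per Mb. Windows on both strands cover 1.98 Mb and held 180 sites per Mb, and sequence outside the windows held 20.1 per Mb. Along the chromosomes, members were densest on III (58.9 per Mb of window) and I (56.9) and least dense on V (35.1), with 45.3 on II and 47.5 on IV. The number of members was nevertheless highest on V, with 169, against 145 to 153 on the other autosomes. On V the windows on a single strand add up to 4.82 Mb, the most of any autosome. The median signal value ran from 19.5 on V to 22.8 on I.

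The MEF2 element was no more frequent at members than beside them. In a search of both strands over 100 bp to each side, it was found at 51 members (6.66%, interval 5.10 to 8.65%), in 7.44% of equally wide flanks with centres 500 bp off (6.23 to 8.86%), at 23 divergent promoter sites (6.46%) and at 6.18% of all autosomal sites. Windows of all autosomal protein-coding promoters, centred at the members' median distance, held it in 8.31%. A shorter core of the element was found at 18.8% of members, against 24.8% of flanks and 25.5% of promoters. Base composition differs between these windows. Members had a median of 40.8% guanine plus cytosine within 100 bp, and 36.8% where they held the element against 41.3% where they did not.

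Among the 51 members with a MEF2 element, the strongest were at F53C3.6 (164), dld-1 (60.2), cua-1 (56.0) and gbas-1 (53.9). Next came rpb-11, a subunit of RNA polymerase II, at 46.4, and rsp-6, an SR splicing factor, at 38.0. They were followed by rbm-39, an RNA-binding protein, at 36.6, and ruvb-2, an ATPase of the RuvB family, at 33.4. The site of rpb-11 also faces W01G7.4. Members with the element had a median signal value of 20.1, and members without it 20.9. In the thresholded list were 11 of the 51 (21.6%), against 30.03% of all members, a difference that was not tested. Over 4 groups of about equal size by signal value, from the strongest to the weakest, the element was found in 4.69, 6.77, 7.85 and 7.33% of members.

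Sequences rich in GA were more frequent at members than in their flanks. In the same search, GAGAGA was found at 289 members (37.7%, interval 34.4 to 41.21%), in 10.9% of flanks (9.44 to 12.6%) and in 12.1% of all promoters. It was found at 28.4% of divergent promoter sites and at 46.9% of sites in no window, so members stood between both classes. The repeat lay on the gene's strand in 15.5% of members and on the opposite strand in 25.5%. The 6-base words with the largest excess over the flanks also included CGTCTC with its reverse complement GAGACG (28.2% of members against 6.79% of flanks) and GACGCA with TGCGTC (23.9% against 4.31%), both of which overlap the 10-base word.

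That 10-base word, GAGACGCAGA, was found by its excess over the flanks in these same members, so its share is a description. It occurred in 85 members (11.1%, interval 9.06 to 13.5%), in 9 of 1532 flanks (0.587%), in 26 divergent promoter sites (7.30%), in 10.6% of sites in no window and in 1.32% of all promoters. Its 87 copies within 100 bp of the members lay a median of 28.5 bp from the site, and 68 lay within 50 bp. On the gene's strand were 33 copies and on the opposite strand 54. Of the 85 members, 55 also held GAGAGA and 3 a MEF2 element. Those with the word had a median signal value of 24.2 against 20.4 without it, and 78 of the 85 had an interval in both replicates. The strongest were at ntl-11, mef-2, sec-61.G, gbas-1, tub-2, a Tubby-domain protein, and C34C12.8, the mitochondrial GrpE cochaperone, of which tub-2 and C34C12.8 were named after their values were seen.

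Both the word and the repeat were more frequent at stronger members. Over the same 4 groups, from the strongest to the weakest, the word was found in 14.6, 13.02, 9.42 and 7.33% of members and GAGAGA in 48.4, 40.6, 31.4 and 30.4%. Guanine plus cytosine moved with this, with group medians of 44.3, 40.5, 39.8 and 38.3%, and its part in the order was not tested. In lists made from the 3000 strongest entries of single replicates, chosen after seeing the data, GAGAGA was found in 38.8% of such sites in replicate 2 and 33.3% in replicate 1, against 11.03 and 11.5% of their flanks. The word was found in 10.4 and 8.74%, against 0.772 and 0.672% of flanks. These lists come from the libraries of the pooled list in which the word and the repeat were picked, so they are not independent of that choice.

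**Figure D3:**
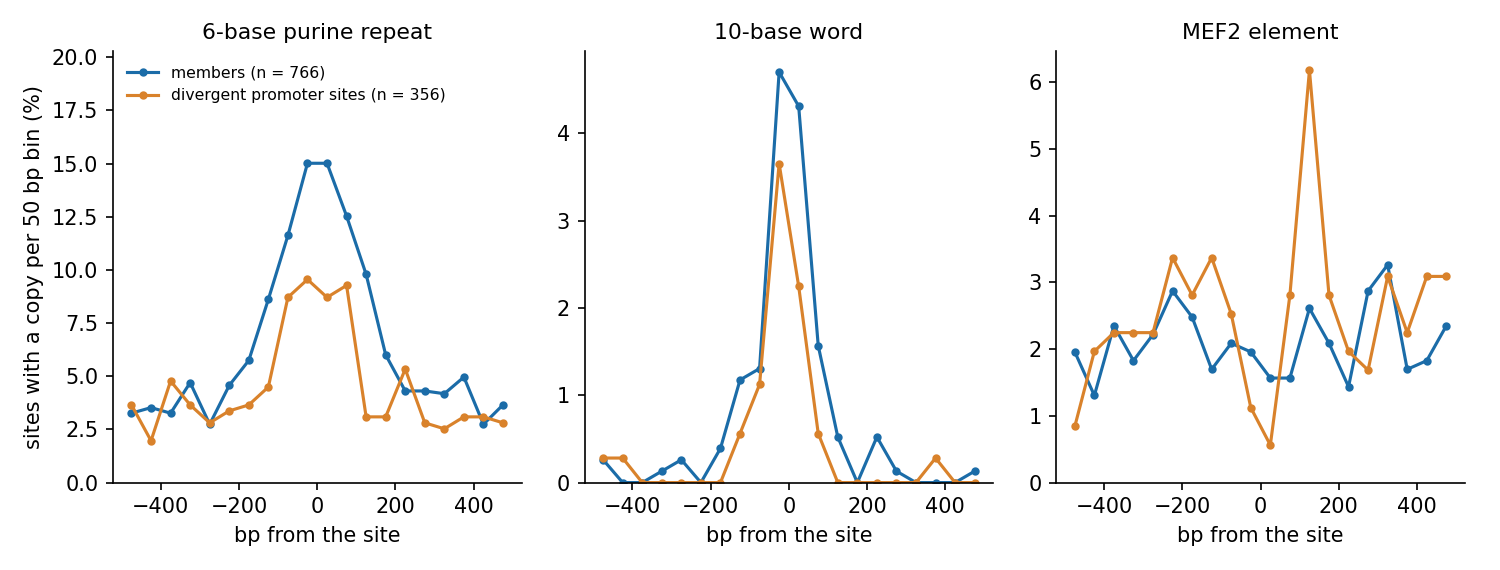
Share of sites with a copy per 50 bp bin (y axis, %) by distance from the site in bp (x axis, below 0 is away from the gene body for members) for 766 members and 356 divergent promoter sites, in 3 panels. At members the 6-base purine repeat GAGAGA reaches 15.01% beside the site and 3.26% in the bin centred 475 bp upstream, the 10-base word reaches 4.70%, and the MEF2 element shows no maximum at the site (1.96 and 1.57% in the bins beside it).

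Of the other elements, TGACG, part of the cyclic AMP response element, was at 30.7% of members, 21.2% of flanks and 19.1% of promoters. GGGCGG, the GC box, was at 8.62%, 2.94% and 4.05%, and the E box CACGTG at 7.83%, 4.05% and 3.10%. CAGCTG, the other E box, was at 7.57%, 4.57% and 3.57%. All of these were at higher shares at members than in the flanks, and their Wilson intervals did not overlap. Divergent promoter sites held TGACG in 33.4%, GGGCGG in 9.83%, CACGTG in 6.18% and CAGCTG in 5.62%. Sites in no window held them in 28.7, 6.98, 8.61 and 6.13%. TGACG and GGGCGG were thus more frequent at divergent promoter sites than at members, and CACGTG at sites in no window. CAGCTG at divergent promoter sites did not exceed the 6.18% of their flanks. Other elements were at lower shares at members. TTTCAG, which resembles a splice acceptor, was at 20.9% of members, 39.9% of flanks and 33.9% of promoters, and a run of TTTTTTTT was at 15.01%, 21.02% and 23.7%. The core promoter element TATAAA was at 17.1% of members, 21.4% of flanks and 24.2% of promoters. TGATAA, bound by factors of the ELT family, was at 12.9%, 16.5% and 20.01%, and the CCAAT box was at 30.03%, 35.2% and 34.3%. Of these 5, the intervals of members and flanks were apart for TTTCAG and TTTTTTTT and overlapped for the others. At divergent promoter sites TTTTTTTT ran the other way, at 19.4% against 13.1% of their flanks. Among all members, 413 held neither the 10-base word, nor GAGAGA, nor a MEF2 element.

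Base composition changed along the members. Guanine plus cytosine made up 45.1% of the bases centred 12 bp downstream of the site, against 35.1% in the bin centred 488 bp upstream. At divergent promoter sites the share was 48.12% beside the site and fell to a minimum on either side of it (30.9 and 30.8%). These sites face genes on both strands, so their sides are not upstream or downstream of a single gene. At the same distances members had 35.1% upstream and 35.98% downstream. Thymine on the gene's strand made up 36.997% of the members' bases at 87 bp downstream, against 32.3% at 488 bp upstream.

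**Figure D4:**
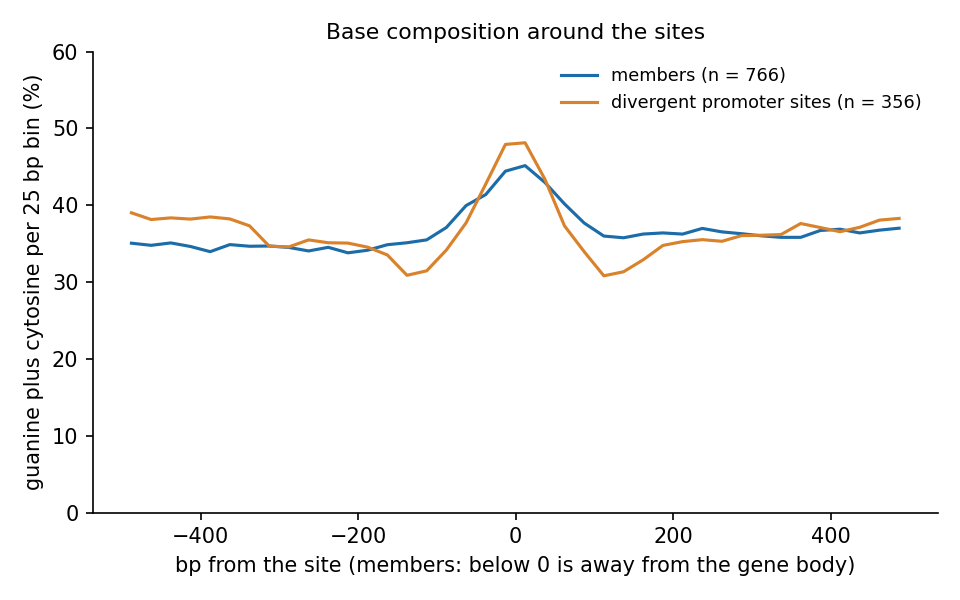
Guanine plus cytosine (y axis, % per 25 bp bin) by distance from the site in bp (x axis) for 766 members and 356 divergent promoter sites. Both are highest at the site, with 45.1% at members and 48.12% at divergent promoter sites. The divergent sites, which face genes on both strands, have a minimum on either side of it (30.9 and 30.8%). At the same distances members have 35.1% upstream and 35.98% downstream.

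The members lay at 761 of 17242 autosomal protein-coding genes, 4.41%, which is the background for the gene lists below. Divergent promoter sites lay at 732 of the 17242 genes, 4.25%, which is the background for their counts. Of the 761 genes, 24 had 2 member sites, 8 also had a divergent promoter site, and 19 members lay at 2 genes. The lists were chosen with earlier results of these data known, so a share is not independent support for a theme. They were drawn up from gene symbols, so a gene of the same kind under another symbol is not counted, and a count of 0 holds for the symbols listed alone.

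Lists of protein synthesis and turnover differed in their share of genes with a member. Of 78 autosomal genes with symbols of cytosolic ribosomal proteins, 17 had a member (21.8%, interval 14.1 to 32.2%) and 39 a divergent promoter site. With the authors' thresholded list, which held only 230 such sites, the share was 12.8%. The share of all genes was not computed for that list, so 12.8% cannot be set against 4.41%. The strongest were rpl-3 (149), rpl-35 (99.5), rpl-41.2 (38.9) and rpl-24.2 (38.4), which is annotated as a putative ribosome biogenesis protein, and the median over the 17 was 27.9, against 21.2 over all genes with a member. Mitochondrial ribosomal protein genes had a member in 9 of 66 (13.6%), led by mrpl-55 (43.7), mrpl-28 (43.7), mrps-28 (26.97) and mrpl-15 (24.4). Translation factors had one in 5 of 48 (10.4%), led by the initiation factor subunits eif-3.C (37.2), eif-3.B (29.4) and eif-2Bgamma (21.2) and the elongation factor eef-1B.2 (19.3). Ubiquitin conjugation genes with CDC-48 had one in 14 of 63 (22.2%, interval 13.7 to 33.9%), with cdc-48.1 (147), the deubiquitinases usp-4 (35.3) and usp-39 (32.99), and the ubiquitin-like protein ubl-1 (24.7). Proteasome genes had a member in 2 of 33 (6.06%, interval 1.68 to 19.6%) and a divergent promoter site in 7, and aminoacyl-tRNA synthetases had a member in 1 of 32 (3.12%, interval 0.554 to 15.7%). The intervals of these 2 lists include the 4.41% of all genes. The ribosomal list was thus split between member and divergent promoters, with more genes at the divergent ones. Divergent promoter sites also lay at 10 of the mitochondrial ribosomal protein genes (15.2%) and at 13 of the translation factors (27.1%). The ubiquitin list had 4 genes at divergent promoters, 6.35%, against 4.25% of all genes.

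Lists of RNA processing, transcription, respiration, chaperones and the cytoskeleton also had members. Spliceosome and RNA processing factors had a member in 12 of 100, with rsp-6 (38.0), cpsf-1, a subunit of the cleavage and polyadenylation factor (37.4), rbm-39 (36.6) and snr-4, a core spliceosomal Sm protein (33.2). RNA polymerase and general transcription genes had one in 5 of 60 (8.33%), with rpb-11 (46.4), taf-12 (36.0), mdt-22 (30.8) and ttb-1 (18.8). Respiratory chain and ATP synthase genes had one in 9 of 74 (12.2%), with cox-5A (87.3), cyc-1, cytochrome c1 (51.5), cox-5B (46.6) and nduf-7 (40.5). Chaperones and heat shock proteins had one in 6 of 67 (8.96%), led by hsp-1, an HSP70 (52.2), crt-1, calreticulin (42.8), dnj-9, a J-domain protein (35.3), and hsp-12.6, a small heat shock protein (29.97). Of 16 tubulin and actin genes, tba-2 (31.3), act-3 (16.5) and act-1 (15.1) had a member. Each share in this group of lists stood above the 4.41% of all genes, though the intervals of the RNA polymerase and chaperone lists reached down to 3.61% and 4.17%. Divergent promoter sites lay at 22% of the spliceosome, 13.3% of the RNA polymerase, 21.6% of the respiratory and 25.4% of the chaperone list. These shares were higher than those at members, so such genes are not particular to the members. For tubulins and actins the divergent share was lower, 6.25% against 18.75%.

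**Figure D5:**
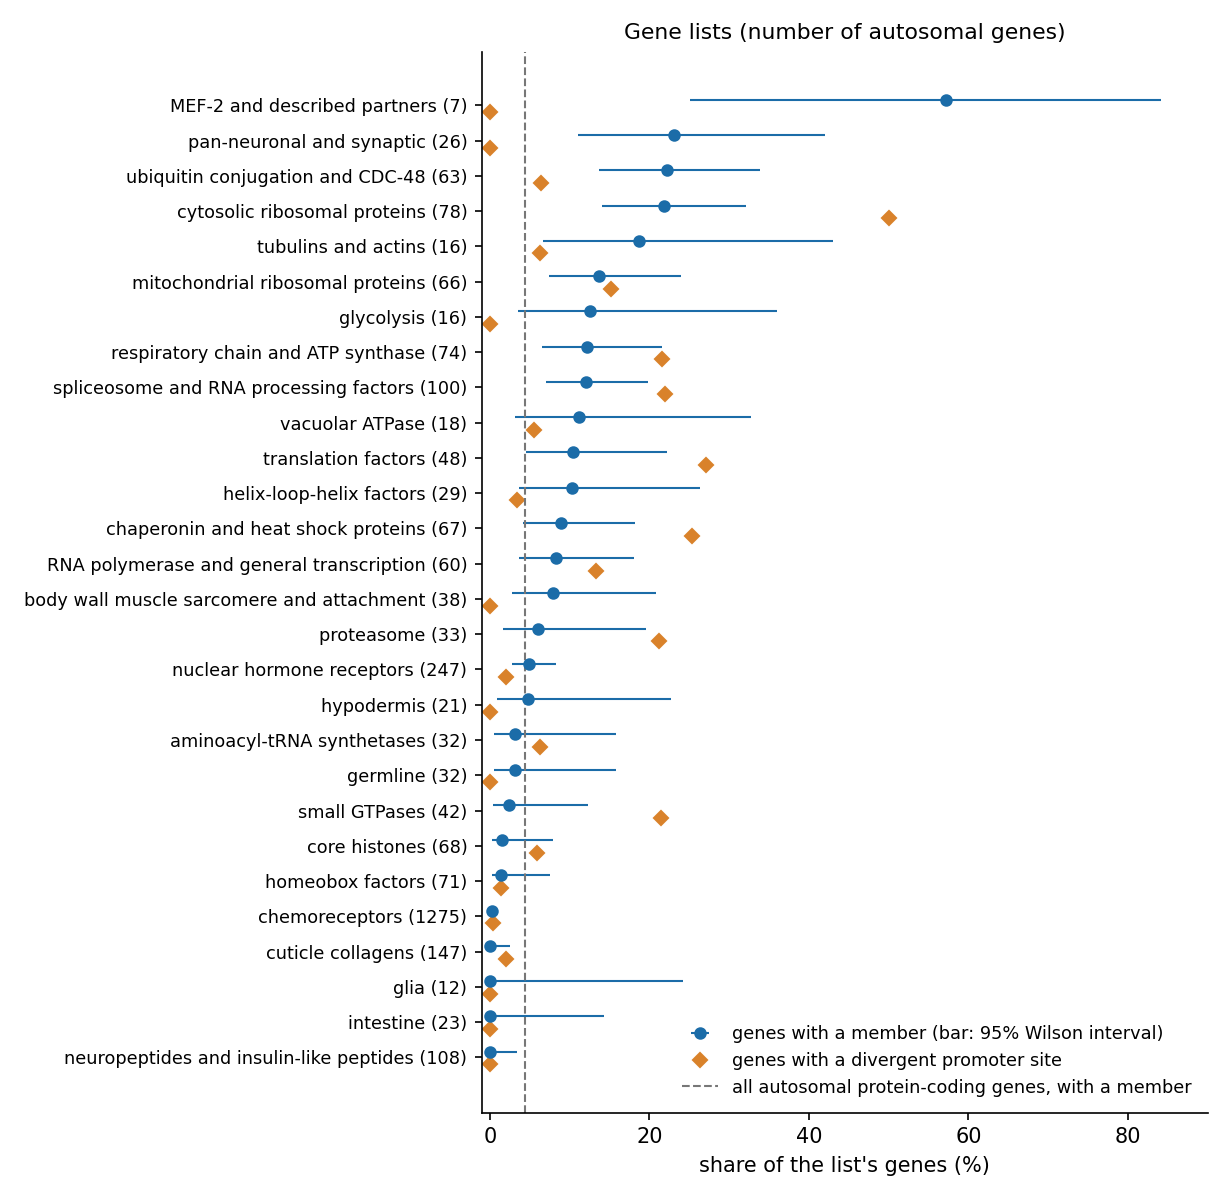
Share of each gene list (x axis, %) with a member (blue points with 95% Wilson intervals) and with a divergent promoter site (orange diamonds), by list with its number of autosomal genes (y axis), beside the 4.41% of all autosomal protein-coding genes with a member (dashed line). Ribosomal proteins have 21.8% at members and 50% at divergent sites, and pan-neuronal genes have 23.1% at members and 0 at divergent sites. Over all autosomal protein-coding genes, 4.25% have a divergent site, a share that is not drawn.

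MEF-2 and its described partners had a member at 4 of 7 genes, with an interval of 25.05 to 84.2%. They were mef-2 (71.0), tax-6, the catalytic subunit of calcineurin (28.4), cmk-1, a calmodulin-dependent kinase (19.8), and cnb-1, the regulatory subunit of calcineurin (15.8). The site of tax-6 lay 972 bp upstream, ranked 476 in replicate 1 and had no interval in replicate 2. The site of cmk-1 ranked 4853 and 493, and that of cnb-1 2457 and 9641. None of the 4 held a MEF2 element within 100 bp, and the ranks differed widely between the replicates. The 4 include mef-2 itself, the tagged gene, where an effect of extra copies in the transgene was not tested.

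Pan-neuronal and synaptic genes had a member in 6 of 26 (23.1%, interval 11.03 to 42.05%) and a divergent promoter site in 0. A list of 26 genes is too small to place that 0 below the 4.25% of all genes. Beside unc-108 (63.6) they were rgef-1, a Ras guanine nucleotide exchange factor used as a neuronal marker (50.4), egl-21, a carboxypeptidase that processes neuropeptides (39.5), and unc-76, a protein of axon growth (38.1). unc-11, a clathrin adaptor (30.2), and ida-1, a dense-core vesicle protein (25.4), complete the 6, and both were picked once their values were known. In the replicates, unc-108 ranked 153 and 39, rgef-1 ranked 135 and 334, egl-21 ranked 1269 and 78, and ida-1 ranked 1544 and 689. The site of unc-76 ranked 199 in replicate 1 and 3569 in replicate 2, and that of unc-11 ranked 437 in replicate 1 and had no interval in replicate 2. Presence near the top of both replicates therefore held for unc-108 and rgef-1 but not for all 6.

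Body wall muscle genes had one in 3 of 38 (7.89%, interval 2.72 to 20.8%), namely sca-1, the calcium pump of the sarcoplasmic reticulum (26.3), unc-112, a kindlin of muscle attachment (16.8), and unc-60, a cofilin (16.2). The site of sca-1 ranked 1178 in replicate 1 and 889 in replicate 2, and that of unc-60, which also faces F53E2.2, ranked 3917 and 3627. The site of unc-112 ranked 1746 in replicate 1 and had no interval in replicate 2. No muscle gene had a divergent promoter site, but 38 genes are too few to place this below the 4.25% of all genes. Muscle genes were thus at a share whose interval includes the 4.41% of all genes.

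Of transcription factor families, nuclear hormone receptors had a member in 12 of 247 (4.86%), led by nhr-49, a receptor that regulates fat metabolism (35.8), nhr-88 (18.6), nhr-180 (18.4) and nhr-114 (17.6). Genes with symbols of helix-loop-helix factors had one in 3 of 29, hlh-11 (39.8), hlh-30, the TFEB relative that regulates lysosomal genes (29.3), and hif-1, the hypoxia factor (21.7). W06H8.6, annotated as a BHLH domain-containing protein (33.1), is also at a member but not in that list. Genes with homeobox symbols had 1 of 71, ceh-20, and F45D3.2, annotated with a homeobox domain (20.3), is a member outside it. Chemoreceptors, the largest family searched, had one in 3 of 1275 (0.235%, interval 0.0801 to 0.690%): sre-23 (23.2), srh-76 (20.4) and srd-32 (17.5). The site of sre-23 had an interval in replicate 2 alone, with rank 350, and that of srd-32, which lay 127 bp downstream of the 5' end, held a MEF2 element. Cuticle collagens had 0 of 147, which allows a share of up to 2.04%, and the listed symbols of neuropeptides and insulin-like peptides also had 0, which allows up to 2.78% of those symbols. F59C6.18, annotated as an FMRF-like peptide (33.9), and F53F4.17 (15.4) and W08A12.2 (14.8), annotated as neuropeptide-like proteins, are members under other symbols, so the family as a whole was not without one. These 5 genes outside the lists were picked once their values were known. Markers of the intestine had 0 of 23 and of glia 0 of 12, which allow up to 13.04 and 25%, and germline and hypodermis markers had 1 of 32 and 1 of 21. The chemoreceptor and collagen intervals lay below the background of 4.41%, and those of the smaller marker lists were too wide to place them. The intervals of nuclear hormone receptors (2.80 to 8.30%), helix-loop-helix (3.58 to 26.4%) and homeobox factors (0.249 to 7.56%) included that background. Among other lists, core histones had 1 of 68, genes with small GTPase symbols 1 of 42 (sar-1, with the Rab2 gene unc-108 not in that list), the vacuolar ATPase 2 of 18 and glycolysis 2 of 16. The intervals of these other lists also include the 4.41% of all genes.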

How the data were processed

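Per the deposited file records, the authors called relaxed narrowPeak lists (peaks together with background) for each replicate and for the pooled replicates against a control, and a list thresholded by the irreproducible discovery rate, on ce11; the ce10 lists were not used. The rate limit, and the tools for alignment and peak calling with their versions, were not given in the sources used here. The signal value, a score of the authors' caller with no stated scale, was used as deposited to rank, filter and describe peaks within a list, so depth is unknown and no count test was possible. The point source gave the site.

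The members were found with Python 3.11.15, pandas 2.3.3 and numpy 2.4.6, genes came from Ensembl release 115 (WBcel235), and sequence from the RefSeq genome of the same chromosome lengths. The classing of sites, their distance from the 5' end and the search for the MEF2 element were tested on simulated sites and elements. Other steps were not tested in this way. The search for elements covered both strands over 100 bp on each side, flanks with centres 500 bp off and all autosomal promoters. The members, gene lists and elements were chosen with earlier results of these data known. No test was run; Wilson intervals used SciPy 1.17.1, and floors for a count of 0 use 3 counts.

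Genes named are the 25 strongest members, up to 4 of each list with 3 or more genes, the 8 strongest members with a MEF2 element, 3 sites on each side of the limits and the 5 largest rank changes each way. Exceptions are stated. Alternatives were other list sizes, windows, 5' ends, overlaps, elements and single replicates.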

Additional observations from a re-analysis of the deposited data

How the results depend on the processing

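The share of autosomal sites that were members was 34.3% among the 1500 strongest entries, 35.9% in the thresholded list, 26.2% with windows of 500 and 100 bp, 38.4% with 2000 bp upstream and 37.9% with all transcript ends; in single replicates it ran from 29.7 to 31.4%. The median distance was 252 bp among the 1500 strongest, 194.5 bp with the short and 479 bp with the long window, and 263 to 274.5 bp in single replicates. The share in both replicates was 94.1% among the 1500 and 65.4% among the 6000 strongest, 75.8% where the point source had to be covered and 75.6% with overlap over 50% of the interval. For the MEF2 element, members against flanks stood at 18.8 and 24.8% for the core, 48.2 and 62.3% with 1 mismatch, 3.00 and 3.59% within 50 bp, 14.1 and 14.2% within 200 bp, and 4.78 and 6.52% in the thresholded list, so members did not exceed flanks in any of these; in single replicates members ran from 5.62 to 6.05% and flanks from 7.09 to 8.199%. Ribosomal protein genes had a member in 12.8% with the thresholded list, 28.2% with the 6000 strongest and 15.4 to 20.5% in single replicates. Chemoreceptors had one in 1.57% with the 6000 strongest, 0 with the thresholded list and with the short window, and 0.392 to 0.471% in single replicates. The share of all genes was not recomputed for these settings, so these values have no matching background. Chosen after seeing the data, GAGAGA was at 44.1% of members among the 1500 strongest, 31.2% among the 6000, 47.8% in the thresholded list, 23.2% within 50 bp (flanks 5.09%) and 50.5% within 200 bp (flanks 21.7%), and 33.3 to 38.8% in single replicates; the word was at 14.04% and 8.27% in the first 2 of these lists, 8.22% within 50 bp, and 8.74 to 10.4% in single replicates. Of 95 recomputed values, 56 stayed within the counting interval, or for distance within the SD of 8.13 bp between replicates, and 39 did not. Leaving out the 4 members near mef-2 moved none of the 11 results beyond these limits. So few sites could hardly have moved them, so this does not check an effect of the transgene. No paired analysis was possible because there is a single group. With peak lists alone, depth sets no limit that could be computed.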
